A study of Mus musculus with 188 samples.

Results

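The 7 genes described here encode the proteins that bind cell-free hemoglobin (Hb) or heme outside cells and the receptors that take these ligands, or modified lipids and debris, into cells. They are Hp, Hpx, Cd163, Lrp1, Marco, Msr1 and Cd36, chosen by symbol from the 25711 Ensembl identifiers of the count files, and all 7 were listed and passed the filter on low counts in both sets of libraries. The libraries are bulk mRNA libraries of organotypic brain slice cultures (BSCs), coronal slices of young adult wildtype C57BL/6J mouse brain (both sexes, perfused before slicing) kept in pairs on an insert without circulation, which were treated on day 7. The proteins added to the medium were human, so they bring protein and no mouse transcript of these genes. Batch 1 held 60 libraries in 6 groups of 10, all after 24 h, which were control, heme-albumin (heme on its low-affinity carrier) at 12.5, 50, 200 or 400 μM, and hemeHpx (heme on hemopexin) at 200 μM. Batches 2 and 3 held libraries with a known group at 24 h and 48 h, which were control (10 and 9), Hb at 200 μM (10 and 10) and 400 μM (10 and 10), the hemoglobin-haptoglobin complex HbHp at 200 μM (8 and 8) and 400 μM (4 and 5), and haptoglobin without hemoglobin at 400 μM, written Hp400 (12 and 11). The titles of the hemeHpx libraries name haptoglobin, whereas their treatment tags and library names give hemopexin, which was followed. For 21 further libraries treatment or time could not be read from the labels, and they enter no comparison. The labels do not say which libraries came from separate mice, so p-values measure the spread between libraries, which may be partly technical.

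Haptoglobin binds free hemoglobin and hemopexin binds free heme, and both are plasma proteins made mainly by the liver in the acute-phase response, which interleukin 6 and STAT3 drive. CD163 is the macrophage receptor that takes up the hemoglobin-haptoglobin complex, and LRP1, a large endocytic receptor of many ligands, takes up heme-hemopexin. MARCO and MSR1 are trimeric class A scavenger receptors of macrophages, and CD36 is a class B scavenger receptor that binds oxidized lipoproteins, apoptotic cells and fatty acids. In the brain, Cd163 marks macrophages of the vessel walls and meninges rather than microglia. In bulk RNA, fewer cells of a type and less RNA per cell cannot be told apart.

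On GRCm38 with the GENCODE M21 annotation, Hp (ENSMUSG00000031722) lies at chr8:109575128-109579172 on the minus strand, Hpx (ENSMUSG00000030895) at chr7:105591613-105600137 on the minus strand and Cd163 (ENSMUSG00000008845) at chr6:124304656-124330527 on the plus strand. Lrp1 (ENSMUSG00000040249) lies at chr10:127538161-127621148 on the minus strand and overlaps Gm16217 on the opposite strand, so that without strand reads of both cannot be told apart. Marco (ENSMUSG00000026390) is at chr1:120474538-120505024, Msr1 (ENSMUSG00000025044) at chr8:39581685-39642673 and Cd36 (ENSMUSG00000002944) at chr5:17781690-17888801, all on the minus strand. The authors' counts used GRCm39, so these positions describe the genes and were not used to count.

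RefSeq promoter windows of GRCm38.p6 (the 250 bases before the start, read on the gene's own strand) were at hand for Hpx, Cd163, Lrp1, Marco and Cd36. The windows of Marco, the gene raised most here, and of Cd163, the gene lowered most, were chosen after their values were seen and are printed with the letters that matched a motif in capitals.
Marco, chr1:120505025-120505274: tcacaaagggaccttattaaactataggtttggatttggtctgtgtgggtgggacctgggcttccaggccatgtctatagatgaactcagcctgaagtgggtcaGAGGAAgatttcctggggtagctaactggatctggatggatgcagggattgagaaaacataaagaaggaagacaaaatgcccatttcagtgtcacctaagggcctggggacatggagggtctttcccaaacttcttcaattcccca
Cd163, chr6:124304401-124304650: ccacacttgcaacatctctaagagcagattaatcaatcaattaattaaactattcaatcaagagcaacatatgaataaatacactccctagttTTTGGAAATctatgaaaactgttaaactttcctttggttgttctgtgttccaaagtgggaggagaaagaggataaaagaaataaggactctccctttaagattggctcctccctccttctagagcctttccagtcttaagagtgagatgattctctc
In the Marco window the capitals mark GAGGAA, the core bound by the myeloid factor PU.1, 146 to 141 bases before the start. In the Cd163 window they mark a C/EBP motif (TTNNGNAAT), 157 to 149 bases before the start. Each motif was searched on both strands. Of all 27025 windows, 23.1% held the PU.1 letters and 10.3% the C/EBP letters. The Lrp1 window held the antioxidant response element letters TGACNNNGC (in 10.1% of all windows) and the STAT letters TTCNNNGAA (7.18%), the Hpx window held TGACNNNGC, and the Cd36 window, which precedes a RefSeq start inside the GENCODE span of the gene (chr5:17835897-17836146), held none of the 5 motifs, the last of which was the AP-1 motif TGANTCA (6.87%). A match describes letters only, and binding was not measured.

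Libraries held between 11038484 and 44199060 counts in batch 1, between 32626873 and 54174784 in batch 2 and between 15587938 and 38839614 in batch 3. Library names of batches 2 and 3 begin with E1 or E2, called experiments here, which differed in 11199 of 16473 tested genes (68.0%, with 36.1% higher in E2), and all HbHp libraries came from E2 and batch 3. E2 has 3 controls at 24 h and 2 at 48 h, so batch and experiment were terms in the model. Of these E2 controls, 1 at each time was of batch 3. All Hp400 libraries were also of batch 3, so HbHp and Hp400 against control lean on the batch term. Among the 7 genes, Hp (log2 fold change 1.31, standard error 0.10), Msr1 (0.94, 0.13) and Cd36 (0.66, 0.098) were higher in E2 than in E1, each called by edgeR (adjusted p of Cd36, the least certain of the 3, 6.59e-09). Of 9 tested microglia markers 8 were also higher in E2 and 1 lower. Microglia and border macrophage markers were present, except Siglech and Cd209f, each at 0 in 54 of the 60 batch 1 libraries. The monocyte and neutrophil markers Retnlg (all 60), S100a9 (55) and Ly6c2 (55) were at 0 in most batch 1 libraries, as was the globin gene Hba-a1 (58), and blood cell RNA was thus near the limit of detection there.

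In control slices the 7 genes spanned a wide range of levels. Levels between genes are given as CPM (counts scaled to the TMM-adjusted library size) per kilobase of exon. In batch 1 the median of 10 controls was 97.3 for Lrp1, 92.2 for Cd36, 43.9 for Msr1, 16.9 for Hp, 2.70 for Marco, 0.714 for Cd163 and 0.454 for Hpx. Lrp1 and Cd36 could not be ordered, with Lrp1 above Cd36 in 5 of 10 controls. The ranges of neighbours in this order overlapped except between Msr1 and Hp and between Hp and Marco. In the 19 controls of batches 2 and 3 the order was Cd36 (96.0), Lrp1 (84.9), Msr1 (55.8), Marco (9.49), Hp (7.42), Cd163 (0.541) and Hpx (0.232). There Marco stood above Hp in 11 of 19 controls, and the ranges of neighbours overlapped for all pairs but Hp and Cd163. In per-length level Cd36 and Msr1 were thus above Cd163 in both sets, and Hpx was lowest, at 2 to 39 counts per library in batch 1.

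**Figure D1:**
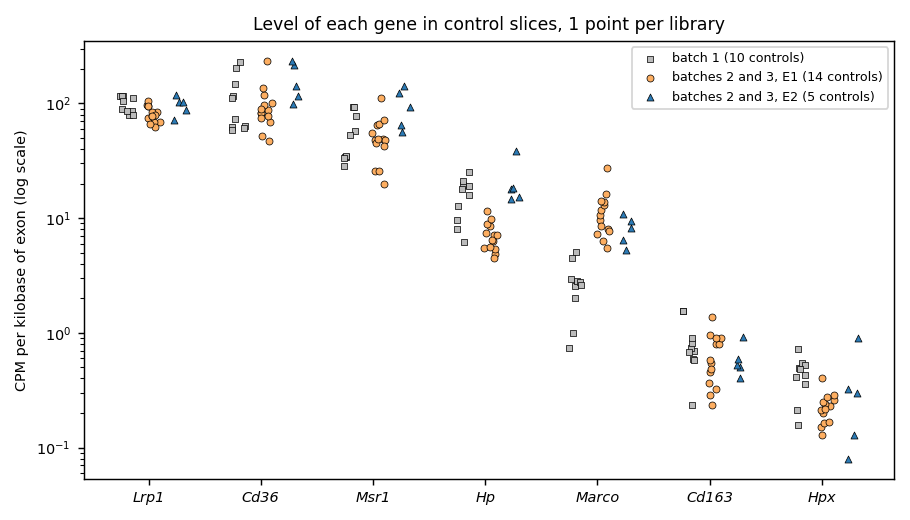
Level of each of the 7 genes in control slices as CPM per kilobase of exon on a log axis, 1 point per library, with squares for batch 1 (n = 10), circles for experiment E1 (n = 14) and triangles for E2 (n = 5). Lrp1, Cd36 and Msr1 lie highest and Cd163 and Hpx lowest, and Hp lies higher in E2 than in E1.

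Counts of called genes depended on the treatment. With heme-albumin at 12.5 μM, 0 of the 7 genes passed edgeR's adjusted p under 0.05 (0.045% of all tested genes did), and 0 had an unadjusted p under 0.05 or were called by DESeq2. At 50 μM 1 gene was higher (background 0.463%, with 0.45% of genes higher), at 200 μM 2 were lower (13.6%, with 6.6% lower), and at 400 μM 1 was higher and 3 were lower (29%, with 14.7% higher and 14.3% lower). With hemeHpx 0 were called against control (8.2%), 1 at an unadjusted p under 0.05 and 1 by DESeq2, and 2 were higher than with heme-albumin at the same dose (25.9%, with 13% higher).

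Free Hb gave 0 of 7 called genes in edgeR at either dose and time, against backgrounds of 0.0971% and 0.522% at 24 h and 0.31% and 0.601% at 48 h for 200 and 400 μM. At an unadjusted p under 0.05 there were 0 and 1 at 24 h and 2 and 4 at 48 h, and DESeq2 called 1, at 400 μM and 48 h. HbHp at 24 h gave 0 called genes at 200 μM (1.93%, with 2 at an unadjusted p under 0.05 and 0 by DESeq2) and 2 at 400 μM (5.15%), 1 higher against 3.1% of genes and 1 lower against 2.06%. At 48 h it gave 3 at 200 μM (11.9%), 2 higher (7.04%) and 1 lower (4.85%), and 2 at 400 μM (11.9%), both higher (7.39%). Hp400 gave 0 at 24 h (0.704%, 0 unadjusted, 0 by DESeq2) and 1 at 48 h (10.8%), which was higher (4.88%). All comparisons of one time use the same controls.

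**Figure D2:**
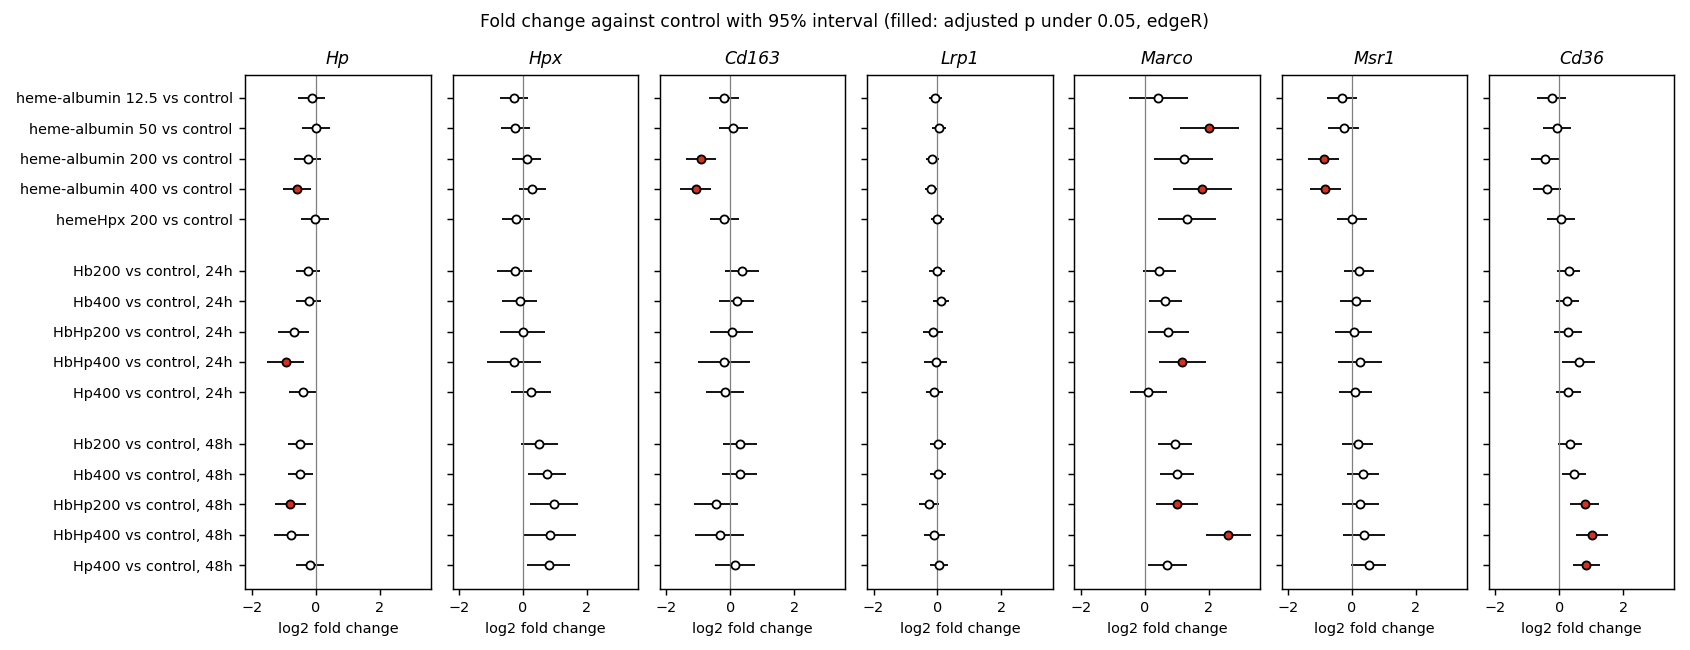
Log2 fold change of each gene against control, with 95% intervals, for 5 treatments of batch 1 and 5 treatments at 24 h and at 48 h of batches 2 and 3; filled points passed edgeR's adjusted p under 0.05. Marco lies at or above 0 throughout, the filled points of Cd163 and Msr1 are those of heme-albumin at 200 and 400 μM, both below 0, and Lrp1 has no filled point.

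Marco, the macrophage receptor with a collagenous structure, was the only one of the 7 to rise with heme-albumin. It was at 1.42 to 9.67 CPM in the 10 batch 1 controls (median 5.21) and at 4.39 to 10.8 CPM with 12.5 μM heme-albumin (median 6.83). At 50 μM it ran from 6.86 to 82.5 CPM (median 14.6), at 200 μM from 3.12 to 20.5 CPM (median 12.6), and at 400 μM from 4.75 to 62.8 CPM (median 13.96). The groups overlapped, with 7, 6 and 7 of 10 libraries above every control at 50, 200 and 400 μM, and the medians of these 3 doses lay close together. The log2 fold change was 2.02 at 50 μM (standard error 0.47, edgeR adjusted p = 0.0212), a 4.06-fold rise, 1.21 at 200 μM (0.47, adjusted p = 0.0739) and 1.80 at 400 μM (0.47, adjusted p = 0.00247), a 3.49-fold rise. The 200 μM value did not pass in this fit. It passed under DESeq2 (adjusted p = 0.0471) and without the highest library of the 50 μM or of the hemeHpx group (adjusted p = 0.0498 and 0.0224). Single libraries weighed on the size. Without the library at 82.5 CPM (the next was 22.9) the 50 μM change was 1.45 and was not called (adjusted p = 0.224), and without the library at 62.8 CPM the 400 μM change was 1.34 and still called (adjusted p = 0.0218). With hemeHpx the median was 6.85 CPM and 1 of 10 libraries, at 73.2 CPM against 8.73 for the next, lay above every control. The hemeHpx change was 1.32 (edgeR adjusted p = 0.0586), and without that library it was 0.21 (adjusted p = 0.747). DESeq2 called it (adjusted p = 0.0351), as did edgeR without the highest 50 μM library (adjusted p = 0.0458). Between hemeHpx and heme-albumin at 200 μM the difference was 0.10 (95% interval -0.77 to 0.97). That value includes the hemeHpx library at 73.2 CPM, while the medians were 6.85 CPM with hemeHpx and 12.6 CPM with heme-albumin. It therefore does not show that the 2 treatments were alike in Marco.

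**Figure D3:**
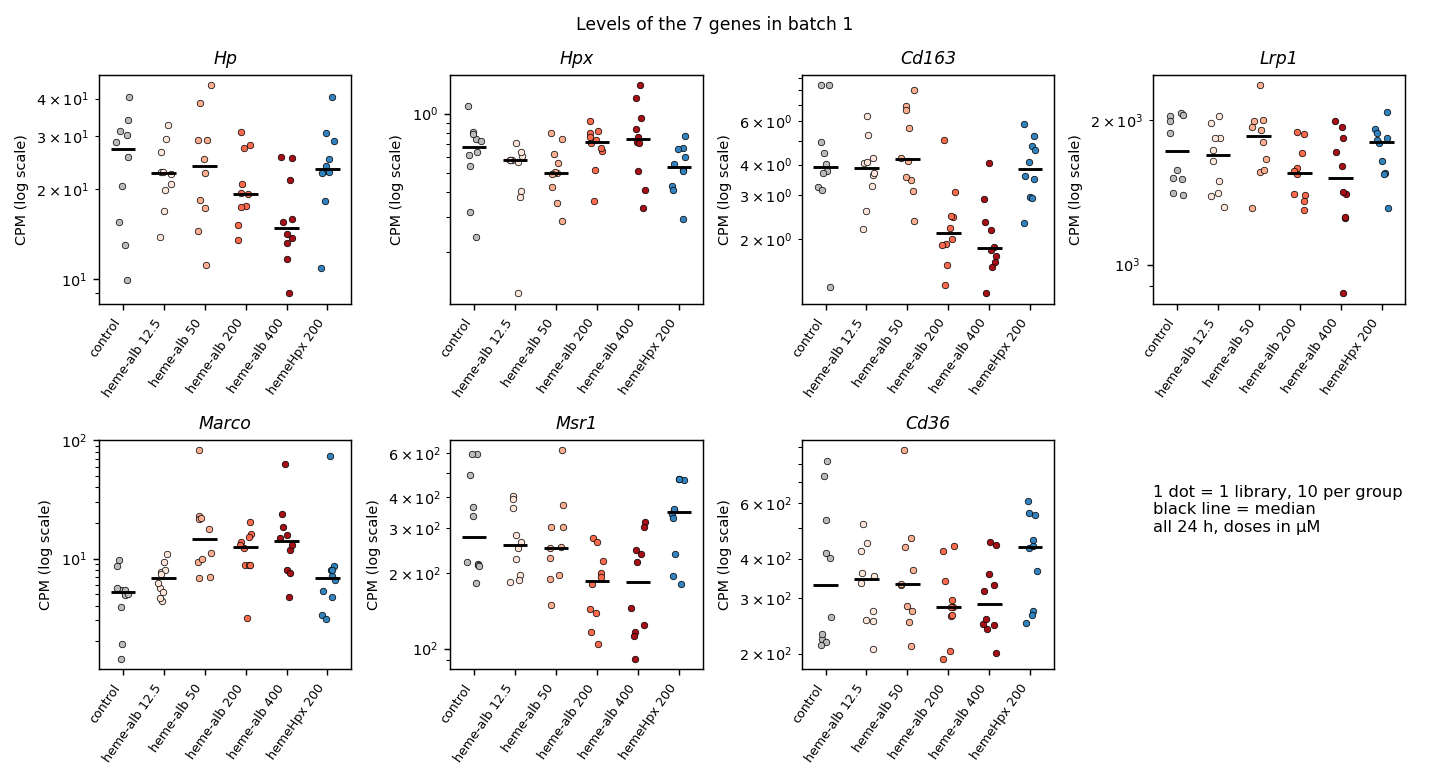
CPM of each gene in the 60 batch 1 libraries on log axes, 1 dot per library and 10 per group, with the group median as a black line. The median of Marco is furthest above that of control at 50, 200 and 400 μM heme-albumin. Cd163 and Msr1 have their lowest medians at 200 and 400 μM heme-albumin. With hemeHpx at 200 μM the median of Cd163 is close to that of control and the median of Msr1 is above it.

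In batches 2 and 3 Marco was called higher with HbHp400 at 24 h and with HbHp200 and HbHp400 at 48 h. At 24 h the level ran from 10.2 to 30.97 CPM in 10 controls (median 16.8), from 12.4 to 33.9 with Hb200 (median 23.8), from 12.2 to 39.4 with Hb400 (median 27.5), from 15.6 to 31.9 with HbHp200 (median 25.2) and from 10.98 to 26.3 with Hp400 (median 17.03). The 4 HbHp400 libraries were at 45.9, 36.9, 31.9 and 19.9 CPM, against 12.5, 10.2 and 18.3 CPM in the 3 E2 controls, so that within E2 these groups did not overlap. The 24 h changes were 0.46 (Hb200), 0.64 (Hb400, adjusted p = 0.522), 0.74 (HbHp200, adjusted p = 0.286), 1.17 (HbHp400, standard error 0.38, edgeR adjusted p = 0.0479) and 0.11 (Hp400). The HbHp400 call was the closest to the threshold and was lost in 13 of 25 alternatives, the E2 libraries alone among them (1.23, adjusted p = 0.256). Leaving out control replicate 7, 8 or 11 at 24 h, control replicate 7 or 9 at 48 h or HbHp400 replicate 1, 2 or 3 each lost it, with adjusted p values from 0.0514 to 0.240.

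At 48 h the Marco level ran from 13.9 to 52.3 CPM in 9 controls (median 20.9), from 23.9 to 77.03 with Hb200 (median 41.5), from 25.1 to 95.5 with Hb400 (median 42.9), from 24.5 to 57.2 with HbHp200 (median 42.7) and from 20.2 to 76.4 with Hp400 (median 36.1). The 5 HbHp400 libraries were at 39.8, 424, 55.6, 60.995 and 46.3 CPM, against 20.9 and 15.8 CPM in the 2 E2 controls. All 8 HbHp200 and all 5 HbHp400 libraries lay above both E2 controls. The changes were 0.95 (Hb200, standard error 0.27, adjusted p = 0.131), 1.003 (Hb400, 0.27, adjusted p = 0.055), 1.01 (HbHp200, 0.34, edgeR adjusted p = 0.0348) and 2.62 (HbHp400, 0.36, adjusted p = 7.11e-08). Without the library at 424 CPM the HbHp400 change was 1.31 (adjusted p = 0.00227), which still passed, and Hb200 and Hb400 then passed too (adjusted p = 0.025 and 0.0066). Hb400 also passed under DESeq2 (adjusted p = 0.0295) and without any other single HbHp400 library of 48 h (adjusted p from 0.0404 to 0.0486). For HbHp200 the call was lost within E2 alone (1.09, adjusted p = 0.263), where 2 controls remain, and without control replicate 9 (adjusted p = 0.0755) or HbHp200 replicate 1 (adjusted p = 0.0642). With Hp400 the change was 0.71 (adjusted p = 0.117), but 1.14 in E1 alone (adjusted p = 0.0237) and 0.33 in E2 alone. In E1 2 of 5 Hp400 libraries lay above all 7 controls, of which 1 was of batch 3 like the Hp400 libraries.

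Direct comparisons at matched dose and time placed Marco higher with HbHp400 than with Hb400 at 48 h (1.61, standard error 0.35, edgeR adjusted p = 0.00253) and than with Hp400 (1.91, 0.31, adjusted p = 2.38e-05). In the former 1 of 7 genes was called (4.28% of all genes, 2.84% higher) and in the latter 1 of 7 (1.44%, 1.03% higher). Both calls rested on the library at 424 CPM, since without it the differences were 0.31 (adjusted p = 0.674) and 0.61 (adjusted p = 0.285). Within E2 all 5 HbHp400 libraries nevertheless lay above all 6 Hp400 libraries, with the lowest at 39.8 and the highest at 38.5 CPM, and 3 of 5 above all 3 Hb400 libraries. HbHp200 and Hb200 differed by 0.065 at 48 h (95% interval -0.56 to 0.69). At 24 h HbHp400 exceeded Hp400 by 1.06 (adjusted p = 0.136), and passed without the 48 h library at 424 CPM (adjusted p = 0.0385) or HbHp400 replicate 4 of 24 h (1.24, adjusted p = 0.0487). The effect of HbHp400 at 48 h exceeded that at 24 h by 1.45 and did not pass after adjustment (p = 0.00324 unadjusted in edgeR, adjusted p = 0.430).

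**Figure D4:**
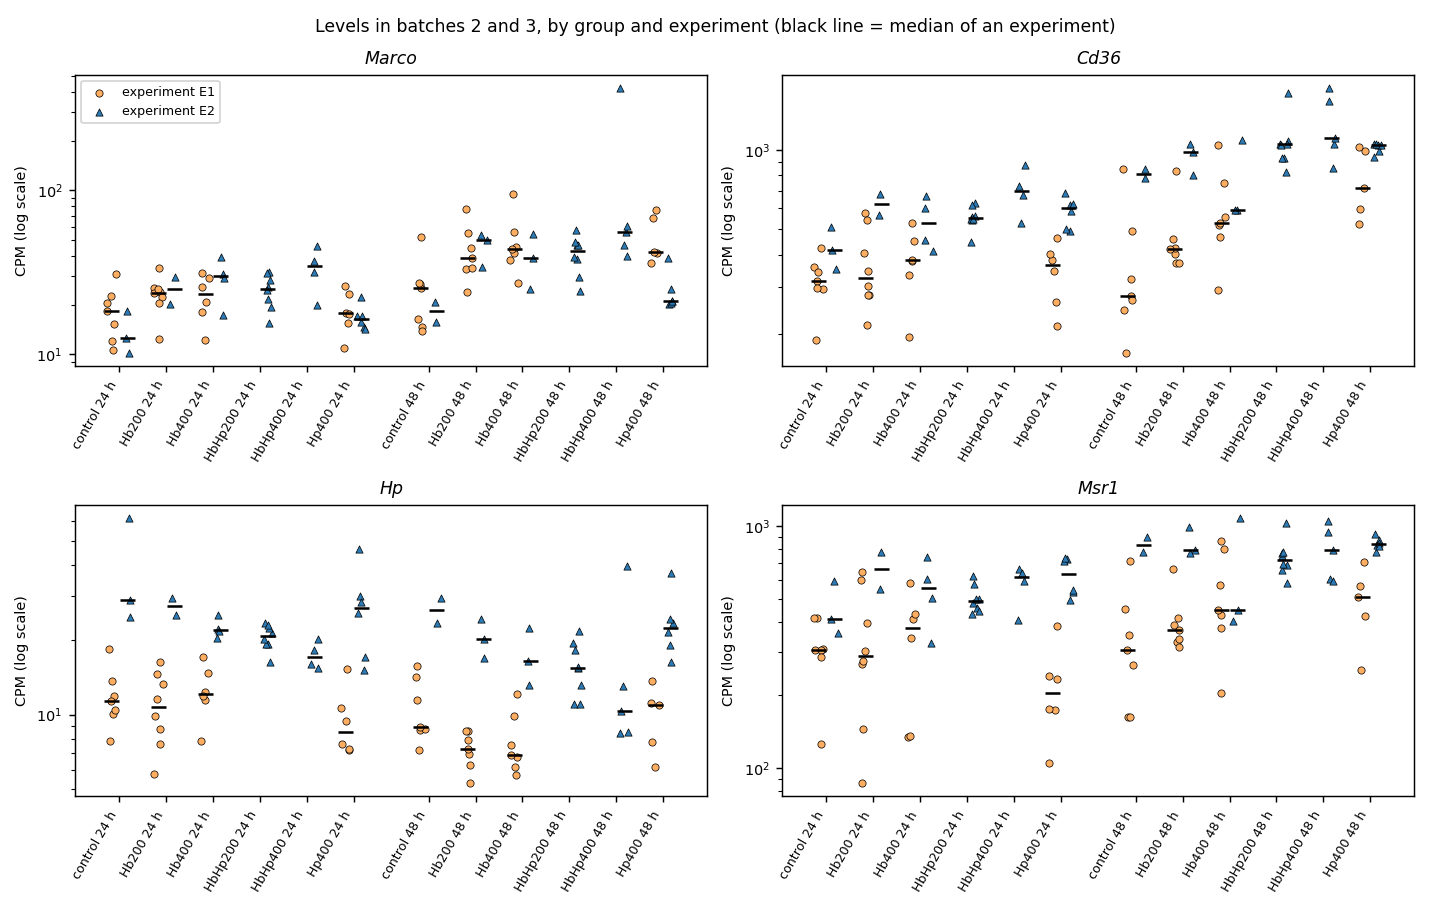
CPM of Marco, Cd36, Hp and Msr1 by group and time on log axes, with circles for experiment E1, triangles for E2 and black lines for the median of an experiment. Cd36, Hp and Msr1 lie higher in E2, and 1 HbHp400 library at 48 h stands at 424 CPM for Marco.

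Cd163, the receptor for hemoglobin-haptoglobin, fell with heme-albumin at 200 and 400 μM and was called in no other treatment. It was at 1.27 to 8.41 CPM in batch 1 controls (median 3.90), 2.19 to 6.32 with 12.5 μM (median 3.89), 2.36 to 8.03 with 50 μM (median 4.20), 1.30 to 5.01 with 200 μM (median 2.10), 1.20 to 4.07 with 400 μM (median 1.83) and 2.31 to 5.82 with hemeHpx (median 3.83). The groups overlapped, and 9 of 10 libraries at 200 μM were at or below 3.11 CPM. The change was -0.91 at 200 μM (standard error 0.24, edgeR adjusted p = 0.00719) and -1.08 at 400 μM (0.24, adjusted p = 0.000457), and it was -0.19 with hemeHpx (adjusted p = 0.612). hemeHpx exceeded heme-albumin at 200 μM by 0.73 (0.24, adjusted p = 0.0217). These 3 calls were made under every alternative tried. In batches 2 and 3 Cd163 ran from 0.715 to 8.84 CPM over the libraries of known group, and its changes with Hb, HbHp and Hp400 lay between -0.44 (HbHp200, 48 h) and 0.38 (Hb200, 24 h), none of them called. For HbHp200 against Hb200 at 48 h the difference was -0.74 (unadjusted p = 0.0331, edgeR adjusted p = 0.205).

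Msr1, the other class A scavenger receptor, fell at the same 2 doses in batch 1. It was at 182 to 595 CPM in controls (median 279), with medians of 258 and 252 CPM at 12.5 and 50 μM. It was at 105 to 276 CPM with 200 μM heme-albumin (median 186), 91.1 to 320 CPM with 400 μM (median 183) and 181 to 473 CPM with hemeHpx (median 350). At 200 and at 400 μM, 5 of 10 libraries lay below every control. The change was -0.89 at 200 μM (standard error 0.25, edgeR adjusted p = 0.00941) and -0.84 at 400 μM (0.25, adjusted p = 0.007), against -0.0035 with hemeHpx, and hemeHpx exceeded heme-albumin by 0.89 (0.25, adjusted p = 0.00716). In batches 2 and 3 no change of Msr1 was called, with values from 0.05 (HbHp200, 24 h) to 0.52 (Hp400, 48 h, adjusted p = 0.22), and the medians at 48 h were 354 CPM in controls, 404 with Hb200, 450 with Hb400, 723 with HbHp200, 799 with HbHp400 and 782 with Hp400. The HbHp groups hold E2 libraries only, whose 48 h controls were at 778 and 898 CPM. In batch 1 microglia markers, and fewer border macrophage markers, fell beside both genes. Of 9 tested microglia markers 7 were lower at 200 μM and 5 at 400 μM, with 0 higher at either dose, and 7 were higher with hemeHpx than with heme-albumin, against 6.6% and 14.3% of all genes lower at these doses and 13% higher between the carriers. Of 9 tested border macrophage markers 3 and 2 were lower, and 5 higher between the carriers. The 2 at 400 μM lie near the 14.3% of all genes that were lower. Summed microglia markers were at 438 to 1160.0 CPM in controls, 336 to 587 at 200 μM, 313 to 697 at 400 μM and 441 to 934 with hemeHpx, and border macrophage markers at 206 to 628, 137 to 356, 147 to 376 and 264 to 550 CPM. Their part in the fall of Cd163 and Msr1 was not tested.

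Cd36 showed no called change in batch 1. It was at 212 to 817 CPM in controls (median 331), with medians of 344 and 332 CPM at 12.5 and 50 μM. It was at 193 to 439 with 200 μM (median 281), 201 to 451 with 400 μM (median 287) and 250 to 609 with hemeHpx (median 435), and the changes at 200 μM, 400 μM and with hemeHpx were -0.43, -0.39 and 0.06. Between hemeHpx and heme-albumin the difference was 0.49 (edgeR adjusted p = 0.1). At 48 h in batches 2 and 3 it rose with HbHp200 (0.80, standard error 0.23, edgeR adjusted p = 0.0142), HbHp400 (1.03, 0.25, adjusted p = 0.00268) and Hp400 (0.84, 0.21, adjusted p = 0.00622). HbHp400 and Hp400 differed by 0.19 (95% interval -0.26 to 0.63). Levels were 169 to 847 CPM in controls (median 323), 821 to 1656 with HbHp200 (median 1050.0), 854 to 1726 with HbHp400 (median 1116) and 525 to 1051 with Hp400 (median 995). The 2 E2 controls were at 780.1 and 844 CPM, and 7 of 8 HbHp200, 5 of 5 HbHp400 and 6 of 6 E2 Hp400 libraries lay above both. Within E2 alone the changes were smaller and none was called, at 0.42, 0.65 and 0.35 (adjusted p = 0.302, 0.11 and 0.738). In E1 alone Hp400 rose by 1.15 (edgeR adjusted p = 0.0177), with 2 of 5 libraries above all 7 E1 controls. Of these controls 1 was of batch 3, as were all 5 Hp400 libraries, so this change leans on the batch term. Without HbHp200 replicate 1, at 1656 CPM, the HbHp200 change was 0.66 (adjusted p = 0.0612). Beside these results, microglia markers (9 tested) had 0 called genes with HbHp200 and 1 lower with HbHp400 by edgeR, and border macrophage markers had 1 higher with each and 1 lower with HbHp400. Of all genes, 7.04% were higher and 4.85% lower with HbHp200. With HbHp400 7.39% were higher, and 751 of 16473 were lower. Summed microglia markers were at 1116 to 1748 CPM with HbHp200 and at 2076 and 2522 CPM in the 2 E2 controls, and border macrophage markers at 349 to 642 against 867 and 1037 CPM. Their part in the rise of Cd36 and Marco was not tested. For Hb200 and Hb400 the 48 h changes of Cd36 were 0.33 and 0.46, the latter at an unadjusted edgeR p of 0.0177 (adjusted p = 0.489). Directly compared at 48 h, HbHp200 exceeded Hb200 by 0.47 and HbHp400 exceeded Hb400 by 0.56. Neither difference was called (edgeR adjusted p = 0.237 and 0.231). At 24 h no treatment was called.

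Hp, the transcript of the hemoglobin binder, was called lower with 400 μM heme-albumin at 24 h, HbHp400 at 24 h and HbHp200 at 48 h. In batch 1 it was at 9.91 to 40.4 CPM in controls (median 27.2), 13.8 to 32.6 at 12.5 μM (median 22.6), 11.2 to 44.4 at 50 μM (median 23.9), 13.5 to 31.1 at 200 μM (median 19.3), 8.96 to 25.6 at 400 μM (median 14.8) and 10.9 to 40.4 with hemeHpx (median 23.4). The groups overlapped, and the median was lowest at 400 μM. The 400 μM change was -0.59 (standard error 0.22, edgeR adjusted p = 0.0364), and without the filter on low counts it did not pass (adjusted p = 0.0571). At 24 h HbHp400 libraries were at 15.9, 15.4, 18.1 and 20.2 CPM and E2 controls at 28.9, 61.8 and 24.6 CPM, a change of -0.94 (0.29, adjusted p = 0.0411) that was not called without the control at 61.8 CPM (-0.76, adjusted p = 0.103) or without HbHp400 replicate 1, 2 or 3 (adjusted p = 0.152, 0.129 and 0.0899). This call on Hp was lost in 11 of 25 alternatives, among which the change ran down in size to -0.19, with neither batch nor experiment term. At 48 h all 8 HbHp200 libraries, 11.02 to 21.8 CPM, lay below both E2 controls, 23.4 and 29.4 CPM, and the change was -0.80 (0.25, adjusted p = 0.0212). It stayed negative within E2 alone (-0.71, adjusted p = 0.287) and was -0.01 without the experiment term. HbHp400 at 48 h gave -0.77 (adjusted p = 0.0555), with 4 libraries at 8.45 to 13.05 CPM and 1 at 39.6 CPM, without which the change was -1.43 (adjusted p = 8.94e-05). It passed under DESeq2 (adjusted p = 0.0393) and without control replicate 7 of 48 h, control replicate 11 of 24 h or HbHp200 replicate 1 of 48 h (adjusted p = 0.0471, 0.0428 and 0.0474). Without the library at 39.6 CPM, HbHp400 was also lower than Hb400 (-0.94, adjusted p = 0.0235) and than Hp400 (-1.24, adjusted p = 0.00241). With Hb and Hp400 the values for Hp were -0.19 to -0.49, with no call.

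Hpx and Lrp1 passed no comparison. Hpx, the transcript of the heme binder, was at 0.124 to 1.39 CPM in batch 1 and 0.119 to 1.34 CPM in batches 2 and 3, so that few counts stand behind each value. Its changes ran from -0.28 (12.5 μM) to 0.30 (400 μM) in batch 1. At 48 h every Hb, HbHp and Hp400 group had a positive value, from 0.52 (Hb200) to 0.97 (HbHp200, edgeR adjusted p = 0.0783), beside 9 controls at 0.119 to 0.415 CPM that were lower than those at 24 h (-0.86, adjusted p = 0.0752). Without the experiment term the HbHp200 value was 1.17 (adjusted p = 0.0132). These comparisons share the same controls. Lrp1, the receptor for heme-hemopexin, was at 871 to 2368 CPM in batch 1 and 449 to 3166 CPM in batches 2 and 3. Its changes ran from -0.19 (400 μM, 95% interval -0.40 to 0.02) to 0.05 in batch 1 and from -0.26 to 0.11 in batches 2 and 3, and with hemeHpx, its ligand, the change was -0.01 (95% interval -0.22 to 0.21). After a correction for GC content and length the 400 μM value of Lrp1 was -0.26 and passed (adjusted p = 0.0167).

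Time alone gave no called change of the 7 genes between 48 h and 24 h controls (4.5% of all genes were called), with 2 at an unadjusted p under 0.05 in edgeR and 0 called by DESeq2. None of the 35 tests of whether a treatment effect differed between the times passed, with 5 at an unadjusted p under 0.05 and 0 called by DESeq2, against 0%, 0%, 0.0121%, 0.0304% and 0% of genes called overall for Hb200, Hb400, HbHp200, HbHp400 and Hp400. Between HbHp and Hb at the same dose and 24 h, 0 of 7 genes were called at 200 μM (0.607% of all) and at 400 μM (2.21%), with 0 and 1 at an unadjusted p under 0.05 and 0 by DESeq2. Between HbHp200 and Hb200 at 48 h 0 were called (4.98%), with 2 at an unadjusted p under 0.05 and 0 by DESeq2. HbHp400 and Hp400 at 24 h likewise gave 0 (0.619%), with 2 at an unadjusted p under 0.05 and 0 by DESeq2.

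Each gene with a mean of at least 1 CPM was placed beside the genes whose log2 CPM followed it most closely over the 60 libraries of batch 1 and those of known group in batches 2 and 3. These correlations are descriptions and share group, depth and experiment. Msr1 ran with Havcr2 (Pearson r = 0.99 and 0.98 in the 2 sets), Cd84 and Nckap1l, all expressed in macrophages, and Cd36 with Lipa, the lysosomal acid lipase (0.97 and 0.98), Igf1 and Il7r. Msr1 and Cd36 ran together themselves (0.90 and 0.89). Cd163 ran with Mrc1, a macrophage mannose receptor (0.77 and 0.75), Cd38 and Gpr34. Marco ran with Bst1 (0.70 and 0.67), Slc25a37, the mitochondrial iron importer (0.70 and 0.65), and Gsap (0.75 and 0.65). Hp ran with the acute-phase gene Saa3 (0.80 and 0.88), C1ra and Angptl4, and Lrp1 with Akap13, Igf2r and Vps13d. Marco and Cd163 ran together little (0.098 and 0.35).

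Other genes of these pathways came from 4 lists, for which counts past edgeR's adjusted p under 0.05 are given beside the medians of all tested genes, which were -0.013 at 200 μM heme-albumin and -0.0057 for HbHp200 at 48 h. Of 33 other scavenger and endocytic receptors tested in batch 1, 2 were higher and 12 lower at 200 μM heme-albumin (median -0.15, against 13.6% of all genes called and 6.6% lower), the latter led by Sorl1, a sorting receptor (-0.60), and Tfrc, the transferrin receptor (-0.89). At 400 μM 3 were higher and 10 lower (14.7% and 14.3% of all genes), with hemeHpx 0 and 1 (8.2% called), and between hemeHpx and heme-albumin 14 were higher and 5 lower (25.9% called, 13% higher). With HbHp200 at 48 h 3 of 36 were higher and 2 lower, Lrp4 (-0.51) and Sorl1 (-0.47), close to the shares of all genes, 7.04% and 4.85%. These shares at 200 μM and for HbHp200 at 48 h are also the background of the counts that follow. Of 27 tested acute-phase and interleukin 6 response genes, the list nearest to Hp and Hpx, 2 were higher and 4 lower at 200 μM (Lif 0.78, Cebpb 0.35, Itih3 -0.66 and A2m -0.48), and with HbHp200 at 48 h 1 of 29 was higher and 2 lower, A2m and Socs3 at -0.43 and -0.47. Of 21 genes that handle heme and iron after uptake, 9 were higher and 0 lower at 200 μM, led by Slc40a1, the iron exporter ferroportin (2.03), and Slc48a1, a heme transporter (0.75), and 9 were higher and 2 lower with HbHp200 at 48 h (Fth1, ferritin heavy chain, 0.97, and Slc48a1, 0.65, against Pcbp2, -0.26, and Pcbp1, -0.21). Of 20 lipid and phagocyte genes often found with Cd36, 1 was lower at 200 μM, Ch25h (-1.13), and 5 were lower at 400 μM (14.3% of all genes). In the same list 10 were higher with hemeHpx than with heme-albumin (13% of all genes), and 0 were called for HbHp200 at 48 h by edgeR (median 0.038).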

How the data were processed

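Per the labels, processing notes and paper methods, polyadenylated RNA was sequenced from TruSeq libraries, and the deposited values are whole read counts per Ensembl gene made by the authors with featureCounts on GRCm39, without normalization; the aligner and annotation are not given in the sources used here. The 7 genes and the gene lists were chosen with earlier results of these data known. Batch 1 (60 libraries, 6 groups) and batches 2 and 3 (all with a known group, in 12 groups) were fitted apart with edgeR 4.0.16 in R 4.3.3 (TMM, filterByExpr with minimum count 10 and total 15, quasi-likelihood F test, Benjamini-Hochberg over 15554 and 16473 genes, called at an adjusted p under 0.05), the latter with batch and experiment as terms. Standard errors are the log2 fold change over the square root of F, and 95% intervals span 1.96 of them. CPM use TMM-scaled library sizes. The model was tested on simulated data. Named beside the 7 genes are the 3 genes correlated most closely with each in both sets (mean of at least 1 CPM, log2 CPM with prior count 2) and, per list, up to 2 genes a direction with the smallest adjusted p for heme-albumin at 200 μM and HbHp200 at 48 h. Marker genes at 0, genes of the closing section and libraries left out were named after their values were seen. Alternatives were DESeq2 1.42.0, RLE scaling, no filter, GC and length correction, other terms and subsets, a replicate block and left-out libraries. The 21 unassigned libraries entered no fit, and no 2 libraries of a group were alike within sampling noise. Of the list genes that this rule selects, not all are reported here.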

Additional observations from a re-analysis of the deposited data

Results flagged for a closer look

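Of 112 gene-by-group sets of 4 to 10 libraries, 19 held a library far from the others by Dixon's criterion, in 14 libraries. For normally distributed values chance flags about 1 in 20 sets. The criterion was applied to CPM without logs, and some groups pool E1 and E2, so that rate may not hold here and no excess is claimed. Marco held 5 such libraries besides the one at 424 CPM, and their values were 82.5 CPM in heme-albumin 50 μM replicate 4 (next 22.9), 62.8 in heme-albumin 400 μM replicate 2 (next 23.9), 73.2 in hemeHpx replicate 4 (next 8.73), 95.5 in Hb400 48 h replicate 5 (next 55.99) and 52.3 in control 48 h replicate 4 (next 27.2). HbHp400 48 h replicate 2 was high in both Marco (424 CPM, next 60.995) and Hp (39.6, next 13.05). In HbHp200 48 h replicate 1, Lrp1 was low at 449 CPM (next 1398) while Cd36, 1656 CPM (next 1083), and Msr1, 1031 CPM (next 781), were high. Control 24 h replicate 8 was high in Hp, 61.8 CPM (next 28.9), and in Hpx, 1.34 CPM (next 0.608). Heme-albumin 50 μM replicate 5 was high in Cd36, 881 CPM (next 465), and in Msr1, 614 CPM (next 372). Further single values were Lrp1 at 3166 CPM in Hb400 24 h replicate 6 (next 1572) and at 1116 CPM in HbHp400 24 h replicate 4 (next 1454), Cd36 at 447 CPM in HbHp200 24 h replicate 1 (next 543), Cd163 at 5.01 CPM in heme-albumin 200 μM replicate 9 (next 3.11) and Hpx at 0.875 CPM in Hb200 48 h replicate 10 (next 0.503).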

How the results depend on the processing

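Of 4431 recomputed log2 fold changes of the 7 genes, 4344 kept their side of the threshold, and 48 lost and 38 gained a call. Of the called changes 1 reversed, that of Hp with HbHp200 at 48 h, which was 0.16 with neither batch nor experiment term. A change of sign between uncalled values was not counted as a reversal. The Cd163 and Msr1 calls with heme-albumin and between the carriers, and those of Marco at 400 μM heme-albumin and HbHp400 at 48 h, held under all alternatives run. The number of the 7 genes called moved by over 1.5 times as follows, and by less for heme-albumin 400 μM (3 to 5), heme-albumin 200 μM (2 to 3) and hemeHpx against heme-albumin (2 to 3), among others. For hemeHpx against control and for Hb400 at 48 h DESeq2 gave 1. For HbHp400 at 24 h it was 0 with no filter, in E2 alone and in batch 3 alone, and 1 without the experiment term and with each time alone. At 48 h HbHp200 gave 0, 0 and 1, HbHp400 gave 1, 1 and 1, and Hp400 gave 0, 0 and 0 in E2 alone, batch 3 alone and each time alone, and Hp400 gave 2 in E1 alone, an alternative chosen after seeing the data. The number of all genes called moved widely too over the alternatives other than left-out libraries. At 48 h it ran from 359 to 5150 for HbHp200, from 602 to 4300 for HbHp400 and from 0 to 2717 for Hp400. For HbHp400 at 24 h it ran from 324 to 1817. HbHp400 against Hb400 gave 1 in batch 3 alone at 24 h, and at 48 h 2 without the experiment term or without both terms, 0 in E2 alone and 0 in batch 3 alone. HbHp200 against Hb200 at 48 h gave 1 without the experiment term and 1 without both terms, and control 48 h against 24 h gave 1 in E2 alone. All genes called ran from 100 to 2739 for HbHp400 against Hb400 and from 7 to 3427 for HbHp200 against Hb200, both at 48 h. Leaving out single libraries gave 0 to 1 for heme-albumin 50 μM, hemeHpx, Hb200 and Hb400 at 48 h and HbHp400 against Hp400 at 24 h, 0 to 2 for HbHp400 at 24 h and 1 to 3 for HbHp200 at 48 h. All genes called then ran from 322 to 1279 for HbHp400 at 24 h and from 1199 to 1963 for HbHp200 at 48 h. The cause was not tested, but E2 alone and batch 3 alone hold 2 controls at 48 h. Those left out singly outside HbHp400 and the E2 or batch 3 controls were chosen after seeing the data. Codes in the library names, taken as a replicate block, were not taken to pair the samples, since not every pair correlated over 0.1 (94 of 169 same-code pairs in batch 1 and 124 of 291 in batches 2 and 3), though the median r was 0.19 for same-code against -0.01 for other pairs in batch 1 and 0.062 against -0.005 in batches 2 and 3. This does not make same-code libraries independent, and some groups held more than 1 library of the same code. The main fit treats all libraries as independent. Its p-values may thus be too small where alike libraries of the same code share a group, and too large where they are spread over the groups compared. With the replicate block 0 of the 7 genes were called for HbHp400 at 24 h and 1, Marco, for Hb200 at 48 h. Hpx, at 2 to 39 counts per library in batch 1, is limited by depth.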

Other observations

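The 20 libraries tagged HbHpx at 400 μM, whose titles name hemoglobin-haptoglobin and whose library names read Hpx (without hemoglobin) in E1 and HbHpx in E2, so that the agent is open, are given as values only. At 24 h Marco ran from 9.55 to 27.4 CPM in 7 E1 libraries (median 13.1) and from 10.2 to 17.4 in 3 E2 libraries (median 17.3). At 48 h Marco ran from 12.2 to 36 in 7 E1 libraries (median 29.7) and from 15.5 to 22.3 in 3 E2 libraries (median 18.1). Cd36 at 48 h ran from 412 to 1013 CPM in E1 (median 699) and from 990 to 1419 in E2 (median 1167), and Msr1 from 294 to 931 (median 622) and from 823 to 1055 (median 979). Hp at 48 h ran from 4.94 to 9.64 CPM in E1 (median 7.04) and from 5.82 to 11.3 in E2 (median 10.9). Cd163 at 48 h ran from 1.58 to 6.54 CPM in E1 (median 4.90) and from 3.17 to 8.93 in E2 (median 3.73). The E2 control whose time is unclear had 34.2 CPM of Hp, 17.4 of Marco, 703 of Msr1, 626 of Cd36, 1740.0 of Lrp1 and 4.66 of Cd163.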
